A study of Homo sapiens with 4 samples.

Results

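A stretch of 1 Mb on the short arm of human chromosome 1, in band 1p36, carried a dense cover of acetylated histone in OVCAR-3, an ovarian cancer cell line. The stretch is chr1:6000001-7000000 of the GRCh37 genome build and is called the window here. Its members are the OVCAR-3 peaks of histone H3 lysine 27 acetylation (H3K27ac) whose summit, the base of highest signal, lay inside it, and they numbered 696 of the 76093 peaks of the OVCAR-3 list, or 0.915%. The window was chosen by its number of OVCAR-3 peaks, so its number of peaks, their density, cover and spacing are descriptions with no test behind them. Just inside the lower edge the first member spanned chr1:6001853-6002100 with a fold enrichment of 4.28, and just outside it the last OVCAR-3 peak spanned chr1:5999816-6000084 with a fold enrichment of 3.75. At the upper edge the last member spanned chr1:6999773-7000115 (fold enrichment 3.28) and the next peak spanned chr1:7000749-7001290 (fold enrichment 4.98).

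The study profiled H3K27ac by chromatin immunoprecipitation and sequencing with antibody ab4729 in 4 established cancer cell lines, to map the active regulatory DNA in which non-coding mutations could act. OVCAR-3 and SKOV-3 are labelled as ovarian, COLO-205 as colon and DU-145 as prostate. All 4 lines grew in medium with fetal bovine serum, without a treatment in the labels: RPMI 1640 for OVCAR-3, RPMI for COLO-205, Eagle minimal essential medium for DU-145 and McCoy's 5a for SKOV-3. Each line gave 1 library, so no difference between lines has a replicate check, and the intervals given are 95% exact Poisson intervals for tag counts and Clopper-Pearson intervals for shares, which cover counting error only. Peak numbers were 76093 in OVCAR-3, 85576 in COLO-205, 75468 in DU-145 and 14001 in SKOV-3, so the lists were not equally deep, and read totals are not given in the files used. OVCAR-3 had a peak within 1 kb of a start of all 6 genes of an ovarian carcinoma list (PAX8, WT1, SOX17, MECOM, MUC16 and EPCAM). It had one at 0 of 5 colon genes and 1 of 4 prostate genes. The share over all coding genes was 59.3% in OVCAR-3, 48.7% in COLO-205, 58.6% in DU-145 and 30.9% in SKOV-3. COLO-205 and DU-145 each marked 4 of the 6 genes of the ovarian list and SKOV-3 marked 3. PAX8 and MECOM were marked in all 4 lines, and EPCAM in every line but SKOV-3. COLO-205 marked 3 of 5 colon genes, which no other line marked, and of the 4 prostate genes DU-145 marked 1, as did COLO-205, and SKOV-3 marked 0.

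Acetylation of lysine 27 on histone H3 is placed by the acetyltransferases p300 and CBP on nucleosomes that flank active promoters and active enhancers. It is removed when a gene is silenced, where the same residue can instead be methylated by the Polycomb system. Band 1p36 is a gene-rich region that is often deleted in neuroblastoma and other cancers, and several of its genes, CHD5, CAMTA1 and RPL22 among them, have been studied as tumour suppressor candidates.

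To show the kinds of DNA under these peaks, 150 bases centred on the summit are given for the pair of peaks with the strongest statistical support, both at promoters, for the pair of widest peaks and for the peak of highest fold enrichment away from promoters. All are read from the plus strand of GRCh37, and capitals mark CpG dinucleotides, the sites of DNA methylation that cluster in promoter islands.

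CAMTA1 and CAMTA1-DT promoter, chr1:6844865-6845014: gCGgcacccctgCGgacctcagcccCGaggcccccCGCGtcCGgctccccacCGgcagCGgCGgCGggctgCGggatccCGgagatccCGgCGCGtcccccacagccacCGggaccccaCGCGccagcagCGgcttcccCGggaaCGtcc

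DNAJC11 promoter, chr1:6761616-6761765: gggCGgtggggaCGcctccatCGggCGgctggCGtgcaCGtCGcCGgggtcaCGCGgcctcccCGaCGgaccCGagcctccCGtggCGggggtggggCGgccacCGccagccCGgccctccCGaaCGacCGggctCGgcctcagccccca

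PLEKHG5 intron, widest peak, chr1:6532030-6532179: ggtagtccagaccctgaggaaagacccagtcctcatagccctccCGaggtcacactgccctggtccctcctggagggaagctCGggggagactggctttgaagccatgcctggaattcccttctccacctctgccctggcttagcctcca

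ESPN intron, second widest peak, chr1:6487711-6487860: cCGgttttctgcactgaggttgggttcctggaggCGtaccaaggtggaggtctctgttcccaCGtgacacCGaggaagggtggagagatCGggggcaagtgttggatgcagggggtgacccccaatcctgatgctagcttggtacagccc

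DNAJC11 exon, distal peak, chr1:6713675-6713824: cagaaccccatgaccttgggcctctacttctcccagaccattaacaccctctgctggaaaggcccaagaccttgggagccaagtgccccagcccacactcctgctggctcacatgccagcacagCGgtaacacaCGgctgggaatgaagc

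The promoter summits held 21 and 22 CpG dinucleotides in 150 bases and were 80.7% and 81.3% G or C. The 3 summits away from promoters held 2, 5 and 2 CpG dinucleotides, with a G and C content between 59.3% and 61.3%. The ESPN peak also contained the whole gene of the microRNA MIR4252 (chr1:6489894-6489956, minus strand), whose mature form in RefSeq (GRCh38.p14) is printed with its seed, bases 2 to 8, in capitals.

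hsa-miR-4252: gGCCACUGagucagcacca

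OVCAR-3 peaks covered 33.8% of the bases of the window. COLO-205 had 150 peaks there, which covered 5.37%, DU-145 had 39 peaks (2.38%) and SKOV-3 had 23 peaks (0.922%). The lists differ in length, and as a share of its own list the window held 0.175% of the COLO-205 peaks, 0.0517% of the DU-145 peaks and 0.164% of the SKOV-3 peaks. By this share DU-145 was the lowest, and SKOV-3 and COLO-205 were close to each other. With every list reduced to the 14001 strongest peaks, the length of the SKOV-3 list, OVCAR-3 kept 30 peaks over 5.60% of the window, beside the 23 of SKOV-3. Among all 2571 stretches of 1 Mb that held any OVCAR-3 peak, the window was the third by number of peaks, against a median of 12 peaks, and it was the ninth of 3062 stretches by covered bases.

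In the 5 Mb on either side OVCAR-3 had 2876 peaks, 870 on the side of the chromosome end and 2006 on the side of the centromere. This gave 287.6 peaks per Mb against 696 in the window, a ratio of 2.42 that the choice of the window fixed in direction. The same ratio, for lines that played no part in the choice, was 0.987 in COLO-205, 1.40 in DU-145 and 1.93 in SKOV-3. By counting error alone the 95% exact intervals of these ratios were 0.829 to 1.17, 0.973 to 1.96 and 1.18 to 3.04. They take neighbouring peaks of 1 library as independent and can be too narrow, so they do not show whether a ratio differs from equal density. The SKOV-3 ratio rests on 23 peaks in the window. The OVCAR-3 ratio was 3.94 against flanks of 2 Mb and 1.60 with the 14001 strongest peaks. The value of 1.60 rests on 30 peaks in the window. It lies inside the SKOV-3 interval, from a list of the same length, so the order of these lines is not settled. Ratios of COLO-205 and DU-145 at that length are not given here.

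The borders of the window were of different kinds. The Mb before it (5 to 6 Mb from the chromosome end) held 27 OVCAR-3 peaks over 0.696% of its bases and no start of a protein-coding gene, and the Mb before that held 35 peaks and 1 such gene. DU-145 had 0 peaks in both of these stretches, SKOV-3 had 0 and 2, and COLO-205 had 86 and 89. The Mb after the window held 286 OVCAR-3 peaks over 10.5% of its bases, and each Mb from there to the end of the flank held between 286 and 536. The number of coding genes with a start there moved with the number of peaks only in part. The window had 21 such genes, but the Mb at the far end of the flank had 41 genes and 409 OVCAR-3 peaks, and 22 genes near the other end stood beside 340 peaks. The part of gene number in the density was not tested.

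**Figure D1:**
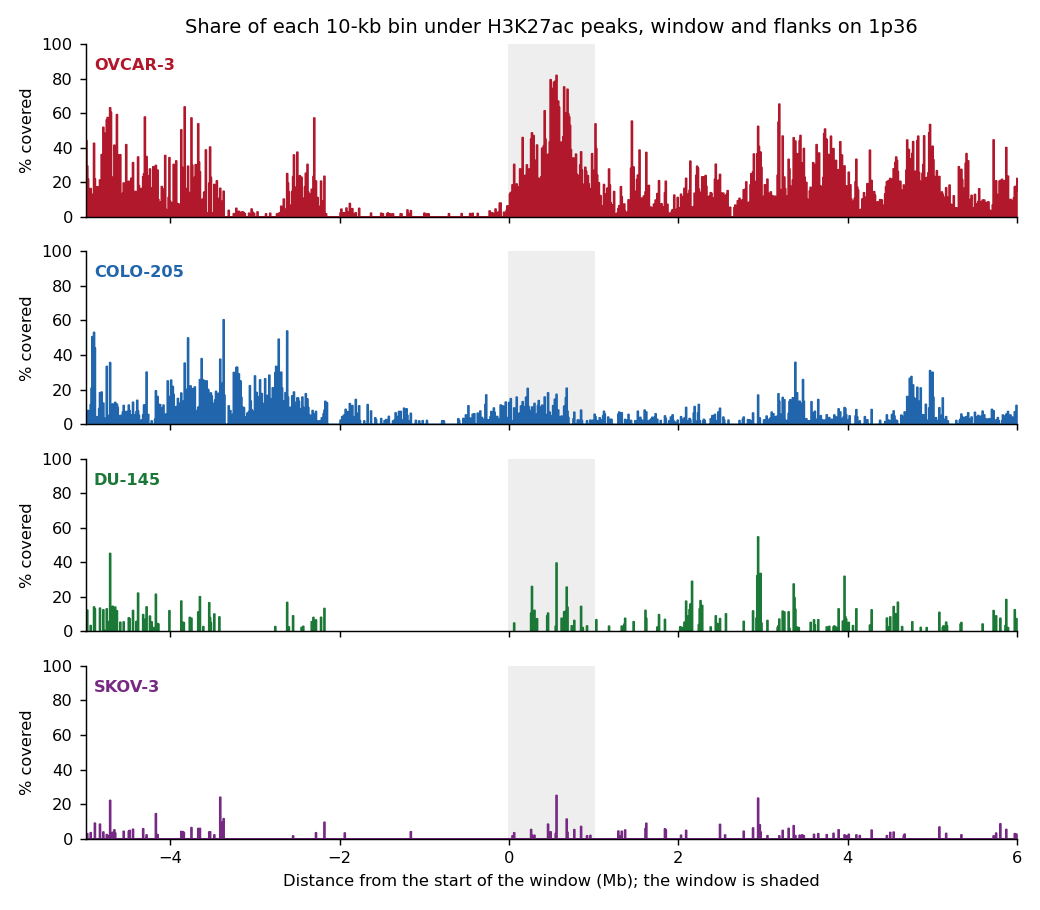
Share of the bases of each 10-kb bin under H3K27ac peaks (vertical axis, %) by distance from the start of the window (horizontal axis, Mb), with a panel for each line and the window shaded. OVCAR-3 rises at the start of the window after 2 Mb with 35 and 27 peaks, and the other 3 lines show scattered peaks there.

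Within the window, cover by OVCAR-3 peaks peaked in the middle. In successive bins of 100 kb it was 12.9%, 22.7%, 34.2%, 24.1%, 47.9%, 64.8%, 53.6%, 35.7%, 23.1% and 18.9% of bases. The number of peaks varied less, from 32 in the first bin to 89 in the seventh, and the peaks in the middle were also wider. Median width was 289.5 bp in the first bin, 443 bp in the sixth and 338.5 bp in the last. The fifth, sixth and seventh bins, with the highest cover, run from within ACOT7, whose start they hold, past THAP3 into DNAJC11. In the bin before the window the cover was 2.005%, and in the bin after it 20.8%, so that the lower edge fell near a border in the signal and the upper edge did not.

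Fold enrichment, the ratio of tags at the summit to the local background expected there with 1 tag added to each, followed another course. Whether that background came from an input library or from the immunoprecipitated library itself is not given in the sources used here. Its median over the members of a bin lay between 4.18 and 5.29 in the first 7 bins and between 5.63 and 5.99 in the last 3. The background tag count recovered from the same peaks had medians between 4.29 and 5.26 in the first 7 bins and between 2.63 and 2.99 in the last 3. The peaks in the last 3 bins, which reach into CAMTA1, thus stood over a lower background. The part of the background in the higher fold there was not tested.

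**Figure D2:**
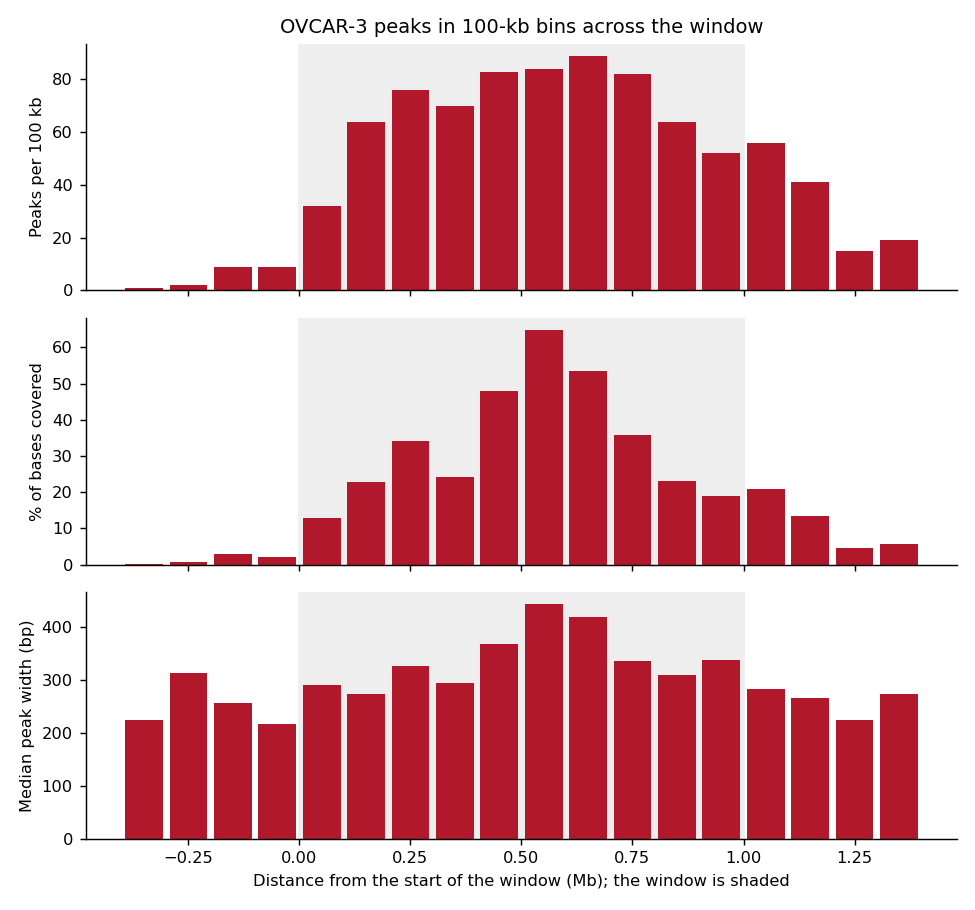
Number of OVCAR-3 peaks, share of bases covered (%) and median peak width (bp) in bins of 100 kb, by distance from the start of the window (Mb), with the window shaded. Cover reaches 64.8% in the sixth bin, where the median width is 443 bp, and the last bins before the window hold at most 9 peaks.

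All 21 protein-coding genes with the start of a protein-coding transcript in the window had an OVCAR-3 peak within 1 kb of a start, against 59.3% of the 19834 coding genes of the annotation and 110 of the 122 in the flanks. A gene left out of the 21, ENSG00000285629, is classed as protein-coding but has only a transcript subject to nonsense-mediated decay, and the edge of an OVCAR-3 peak of 27 tags lay 466 bp from its start. Of the same 21 genes COLO-205 marked 20 (95.2%, 76.2% to 99.9%), DU-145 marked 16 (76.2%, 52.8% to 91.8%) and SKOV-3 marked 13 (61.9%, 38.4% to 81.9%), where the shares over all coding genes were 48.7%, 58.6% and 30.9%. The share in the window was above the genome-wide share in each of these lines. The intervals take the 21 genes as independent, but some neighbours share a promoter peak. They are thus too narrow to judge these differences. In the flanks COLO-205 marked 92, DU-145 marked 76 and SKOV-3 marked 60 of 122, also above the genome-wide shares. A dense list has more peaks within reach of any start, and how much of the full count in OVCAR-3 this accounts for was not tested.

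The strongest OVCAR-3 promoter peak of each gene is described by its pileup, the number of tags stacked at the summit, which was solved from the fold enrichment and p-value in the list. Pileups were not scaled for depth, so those of different lines are set side by side here without a fold, and are compared further on only relative to all peaks shared by a pair of lines. The highest was at the shared promoter of CAMTA1, a calmodulin-binding transcription activator, and its divergent transcript CAMTA1-DT (chr1:6844171-6845170), the first sequence above. Its pileup was 261 tags (95% interval 230 to 295) in OVCAR-3, 61 in COLO-205, 77 in DU-145 and 62 in SKOV-3, and its OVCAR-3 fold enrichment was 25.6 with a −log10 q-value of 267. A second peak followed 234 bp on at the CAMTA1 start (chr1:6845405-6846579, fold enrichment 21.5).

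DNAJC11, which encodes a mitochondrial chaperone of the cristae-organising complex, had an equal OVCAR-3 pileup of 261 (230 to 295), against 69 in COLO-205, 50 in DU-145 and 36 in SKOV-3. RPL22, a protein of the large ribosomal subunit, followed with 251 (221 to 284) in OVCAR-3, 79 in COLO-205 and 53 in SKOV-3, and DU-145 had 48 at a neighbouring peak (chr1:6259966-6260494). At ACOT7, an acyl-CoA thioesterase of lipid metabolism, the OVCAR-3 pileup was 211 (183 to 241), with 42 in COLO-205, 62 in DU-145 and 56 in SKOV-3. COLO-205 had its best supported ACOT7 peak at another start of the gene (chr1:6420238-6420575, 36 tags). The counts of CAMTA1, DNAJC11 and RPL22 each lay inside the intervals of the other two, and that of ACOT7 lay below all 3 intervals.

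PHF13, a chromatin reader, and KLHL21, an adaptor of a ubiquitin ligase used in cell division, start within a short distance of each other and had a pair of peaks. One lay at chr1:6672759-6673582 with a pileup of 200 (173 to 230) and the other at chr1:6673757-6675822 with 197 (170 to 227), 174 bp apart. NOL9, a kinase of ribosomal RNA processing, had a pileup of 214 (186 to 245), and the same peak was the strongest within 1 kb of TAS1R1, the umami taste receptor subunit, whose start lay 916 bp downstream of its summit. A lower peak of 39 tags (chr1:6615077-6615789) lay over the TAS1R1 start itself. Such shared peaks mean that the 21 genes do not give 21 independent values. NPHP4, a protein of the primary cilium, and KCNAB2, a potassium channel subunit, also shared their strongest OVCAR-3 peak, with 158 tags (134 to 185).

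The 5 genes without a promoter peak in DU-145 were CHD5, ESPN, TNFRSF25, HES2 and HES3. The first 3 had one in OVCAR-3 and COLO-205, HES2 had one in SKOV-3 as well, and HES3 had one in OVCAR-3 and in no other line. SKOV-3 also lacked a peak at NOL9, TAS1R1, ZBTB48 and GPR153. CHD5, a chromatin remodeller expressed mainly in neurons and testis, had a pileup of 31 tags (21.1 to 44) in OVCAR-3 and 19 (11.4 to 29.7) in COLO-205. HES2 and HES3 encode basic helix-loop-helix repressors of the Notch-target family, and their OVCAR-3 pileups were 46 (33.7 to 61.4) and 27 (17.8 to 39.3). ESPN, an actin-bundling protein of hair cells, had 59 (44.9 to 76.1), and TNFRSF25, a death receptor of lymphocytes, had 42 (30.3 to 56.8). The 5 genes, together with GPR153, an orphan receptor (37 tags, 26.1 to 51.0), had the lowest OVCAR-3 promoter pileups of the 21 genes, and every other gene stood at 108 or more.

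Fold enrichment at the strongest promoter peak was higher in OVCAR-3 than in COLO-205 at 20 of 20 genes marked in both, though not always at the same start, than in DU-145 at 16 of 16 and than in SKOV-3 at 13 of 13. Over all coding genes marked in both lines the shares were 89.2%, 84.9% and 90.0%, so this direction was the rule in these lists. Median promoter fold enrichment in the window was 13.0 in OVCAR-3 (range 4.63 to 25.6), 4.55 in COLO-205, 4.76 in DU-145 and 6.29 in SKOV-3. In OVCAR-3 the summit of the strongest peak lay downstream of the nearest start at 15 of 21 genes, and at 11 of them by 1 to 200 bp.

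**Figure D3:**
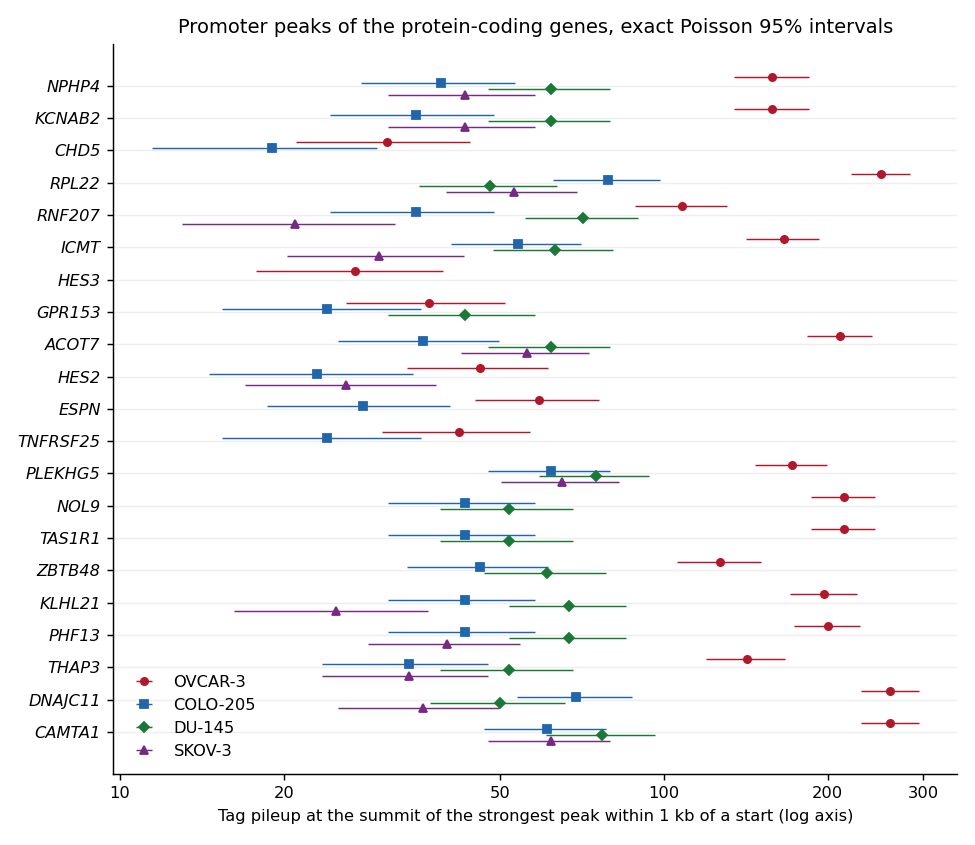
Tags at the summit of the strongest H3K27ac peak within 1 kb of a start (horizontal axis, log scale) for each protein-coding gene of the window in chromosome order, with exact Poisson 95% intervals and a mark for each line that had a peak, which for ACOT7 in COLO-205 lies at another start. OVCAR-3 stands at 108 tags or more at 15 genes and between 27 and 59 at CHD5, HES3, GPR153, HES2, ESPN and TNFRSF25.

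The cover reached far beyond promoters into gene bodies. Of the 22 protein-coding genes that overlap the window, 8 had over 50% of their body under OVCAR-3 peaks, against 1.88% of all 20176 coding genes and 8 of 121 in the flanks. They were THAP3 (76.7%), a zinc-finger protein, ZBTB48 (74.9%), a telomere-binding zinc-finger protein, TNFRSF25 (74.4%), PLEKHG5 (73.5%), ESPN (67.9%), PHF13 (63.1%), KLHL21 (59.6%) and HES2 (58.1%). All 8 lie in the stretch of highest cover that runs from HES2 to THAP3. The window was chosen for its peaks in OVCAR-3, so these shares are descriptions of it.

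The body of the median gene was covered to 41.1% in OVCAR-3, 6.82% in COLO-205, 1.42% in DU-145 and 0.397% in SKOV-3. OVCAR-3 had the highest share in 22 of 22 genes. The highest share of any gene was 15.2% in COLO-205, 18.0% in DU-145 and 7.83% in SKOV-3, in each case at PHF13. Bodies with no peak at all numbered 1 in COLO-205, 5 in DU-145 and 9 in SKOV-3. In OVCAR-3 the lowest share was 6.98%, at NPHP4, most of whose body lies before the window, where COLO-205 covered 5.93%. NPHP4 was the gene at which the lines were closest.

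CAMTA1, which runs for 984253 bp across the upper edge, was covered to 12.7% by 334 OVCAR-3 peaks, against 1.83% and 65 peaks in COLO-205, 0.782% and 17 peaks in DU-145, and 0.412% and 12 peaks in SKOV-3. ACOT7 (129499 bp) was covered to 31.6% by 102 OVCAR-3 peaks, DNAJC11 to 41.1% by 59 and CHD5 to 23.6% by 56. CHD5 had 24 COLO-205 peaks over 10.3% of its body and none in DU-145 and SKOV-3. Its weak promoter peak in OVCAR-3 thus stood beside many peaks in its body. The remaining genes ranged from HES3, with 11.7%, to NOL9, with 44.9%, and ENSG00000285629, which overlaps CHD5, had 29.8%.

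**Figure D4:**
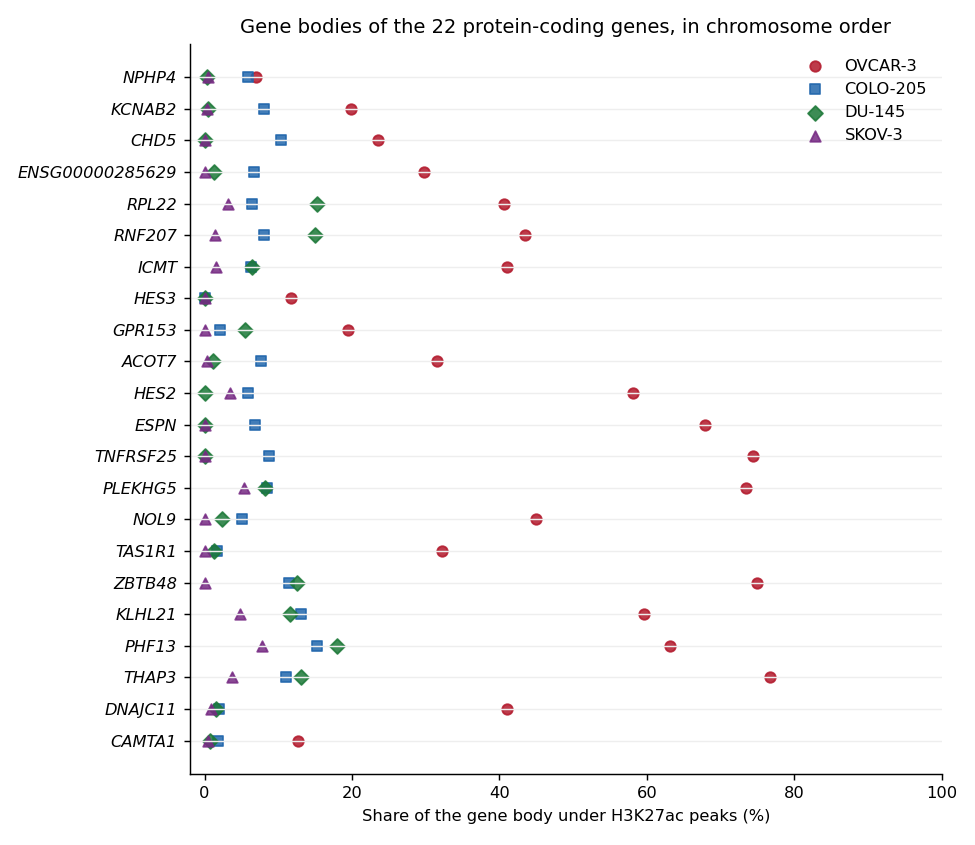
Share of the gene body under H3K27ac peaks (horizontal axis, %) for the 22 protein-coding genes that overlap the window, in chromosome order, with a mark for each line. OVCAR-3 lies to the right of the other 3 lines at every gene, by most at THAP3, ZBTB48, TNFRSF25 and PLEKHG5 and by least at NPHP4.

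All 12 non-coding genes with a start in the window had an OVCAR-3 peak within 1 kb of it, against 112 of 193 in the flanks and 14.6% of all 44310 non-coding genes of the annotation. The 4 with the strongest peaks were CAMTA1-DT, a transcript on the opposite strand to ACOT7 with the identifier ENSG00000271746 (pileup 211), ICMT-DT (166), which starts beside the carboxyl methyltransferase gene ICMT, and MIR4252 (132). The strongest peak of the first 3 is the promoter peak of a coding gene, and MIR4252 lies in the body of ESPN, so that these peaks cannot be assigned to them rather than to the coding gene.

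The 3 widest peaks had their summits in introns. The widest ran for 5573 bp in PLEKHG5 (chr1:6530572-6536144, the third sequence above), with a fold enrichment of 17.9, a −log10 q-value of 148 and a pileup of 169 (144 to 196), and overlapped a COLO-205 peak. The second ran for 5467 bp in ESPN (chr1:6486217-6491683, fold enrichment 13.9, pileup 132) and overlapped a peak of no other line. The third ran for 4404 bp at a PLEKHG5 start (chr1:6548251-6552654, fold enrichment 17.2) and was shared by all 4 lines. Of the 8 widest peaks, 5 lay in PLEKHG5, among them chr1:6570609-6574666 (4058 bp), chr1:6555446-6558701 (3256 bp) and chr1:6544318-6546661 (2344 bp), the last of which overlapped a peak of no other line. ZBTB48 (chr1:6640000-6642813, 2814 bp) and KLHL21 (chr1:6661294-6663804, 2511 bp) held the remaining pair, each shared with COLO-205 and DU-145. At least 1 kb in width was reached by 51 members (7.33%), against 4.69% of the peaks in the flanks and 7.81% of the whole list. The share of wide peaks was thus near that of the list.

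The gaps between members follow from the number of peaks by which the window was chosen and are given as a description. The median gap between neighbouring members was 535 bp, against 1077 bp in the flanks and 2472 bp over the whole list. Gaps under 350 bp made up 38.1% of the gaps in the window, 23.5% in the flanks and 21.3% over the list. Joining peaks across such gaps, as the study's methods describe, left 431 domains, of which 8 were at least 5 kb wide, against 398 of the 59912 domains of the whole list. The widest spanned 13364 bp over the start of HES2 and the first part of ESPN, which lie on opposite strands (chr1:6482891-6496254) with 9 peaks on 86.9% of its bases. PLEKHG5 held the next pair, of 11245 bp (chr1:6542842-6554086) and 9097 bp (chr1:6527048-6536144). Over the whole list the widest domain of the window was number 56 of 59912 in order of width.

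Most members were modest in height. Their fold enrichment had a median of 5.02 and an interquartile range of 4.24 to 6.03, against medians of 4.80 in the flanks and 5.37 over all OVCAR-3 peaks. The difference to the flanks turned to -0.17 at a −log10 q-value of at least 10 and to -0.0906 with flanks of 2 Mb. The median pileup was 26 tags in the window, 23 in the flanks and 27 over the list, and the median −log10 q-value was 9.81, 8.25 and 11.05. The recovered background was 4.28 tags in the window, 3.95 in the flanks and 4.19 over the list. High density therefore went with heights in the range of the rest of the list.

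The members near starts were taller. The 84 members within 1 kb of a protein-coding start had a median pileup of 35.5 tags and a median width of 637.5 bp, and the 612 others had 25 tags and 330 bp. The near-start members stood on a median background of 6.09 tags, the others on 3.95. Of all OVCAR-3 peaks near a coding start the median pileup was 60, higher than in the window, and in the flanks it was 34. These medians count every peak near a start, and several can lie at the same gene. The strongest promoter peaks of the 21 genes had a median of 158 tags. The near-start members held 21.99% of the bases covered by members. Within 1 kb of a coding start lay 12.1% of the members (9.74% to 14.7%), against 10.3% in the flanks and 23.5% of the whole list. The flanks lay on opposite sides of the window value, with 17.5% towards the chromosome end and 7.13% towards the centromere. Most peaks of the window in the full list thus lay away from promoters. Among the 30 members left when every list was reduced to its 14001 strongest peaks, 73.3% lay within 1 kb of a coding start. The share over all 14001 strongest OVCAR-3 peaks is not given here, so this value cannot be read as a trait of the window.

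**Figure D5:**
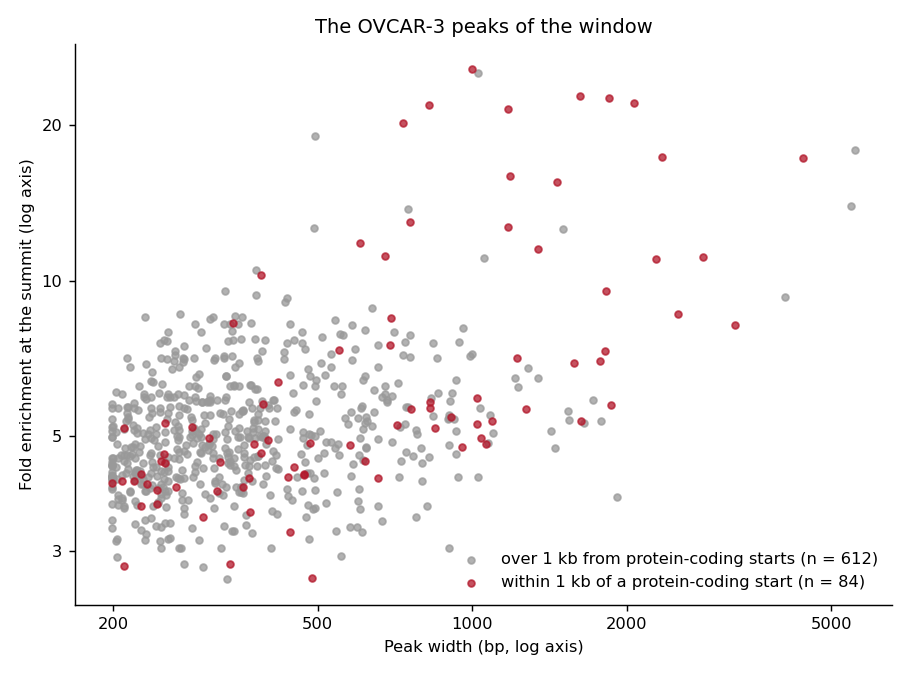
Fold enrichment at the summit against peak width (bp), both on log axes, for the 696 OVCAR-3 peaks of the window, with the 84 within 1 kb of a protein-coding start in red and the 612 others in grey. Most peaks lie below a fold enrichment of 10, and the peaks above 20 are promoter peaks with 1 exception, in the body of DNAJC11.

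Among the peaks away from starts the highest fold enrichment was 25.2, in the body of DNAJC11 (chr1:6712957-6713983, the last of the sequences above). Its pileup was 96 tags (77.8 to 117) over a background of 2.85, each raised by 1 tag in the fold, its summit lay 27347 bp from the nearest coding start, and it overlapped a peak of no other line. A second distal group lay in an intron of CAMTA1, with a peak whose summit lay 74139 bp from the nearest coding start, at chr1:6919509-6920002 (fold enrichment 19.0, pileup 66, 51.0 to 84.0) that was shared with COLO-205 and DU-145. Its neighbour at chr1:6920637-6921387 (fold enrichment 13.8, pileup 49) overlapped none. These 3 peaks stood on backgrounds between 2.52 and 2.85 tags, near the floor of 2.52 in this list, where the added tag lowers the fold the most.

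By the position of the summit, 506 members (72.7%, 69.2% to 76.0%) lay in introns, 101 (14.5%) in exons and 89 (12.8%) between genes. The bases of the window were 76.4% intronic, 12.7% exonic and 10.9% intergenic, so the members were spread over these classes close to their share of the sequence. In the flanks 25.4% of the OVCAR-3 peaks lay between genes, on 35.7% of the bases.

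A peak of at least one other line overlapped 128 members (18.4%, 15.6% to 21.5%), against 25.2% in the flanks and 40.7% of the whole OVCAR-3 list. COLO-205 overlapped 112 members (16.1%), where the share over the list was 20.0%. DU-145 overlapped 32 (4.60%, list 32.0%) and SKOV-3 overlapped 17 (2.44%, list 11.1%). The share with any other line was 50% among the 30 members of lists of equal length and 8.43% at a −log10 q-value of at least 10. The shares over all OVCAR-3 peaks at these settings are not given here, so these values cannot be set against the list. The share with DU-145 in the full lists thus lay furthest under its level over the list, and the share with COLO-205 lay close to it. COLO-205 had 150 peaks in the window, DU-145 had 39 and SKOV-3 had 23. The window was chosen for its many OVCAR-3 peaks, so these small numbers limit the shares, also that with all 4 lines. The shares are therefore descriptions of the window. In the flanks the shares were 20.7%, 8.03% and 3.48% in the same order, so the low overlap with DU-145 extended over the surrounding region.

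All 4 lines shared 12 members (1.72%), against 6.80% of the list, and all 12 lay within 1 kb of a protein-coding start, those of NPHP4, RPL22, RNF207, ICMT, ACOT7, PLEKHG5, PHF13, THAP3, DNAJC11 and CAMTA1. The 568 members found in OVCAR-3 alone held 69.3% of the bases covered. Their median pileup was 25 tags, against 28 for the shared members, and their median width was 326 bp, against 488.5 bp. Low peaks are missed more easily in a shallow list, and how far this lowers the shares with SKOV-3 was not tested.

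Read the other way, most peaks of the other lines in the window overlapped an OVCAR-3 peak. This held for 125 of 150 COLO-205 peaks (83.3%, 76.4% to 88.9%), against 41.1% in the flanks and 19.3% over its list. It held for 39 of 39 DU-145 peaks (flanks 84.9%, list 31.0%) and for 22 of 23 SKOV-3 peaks (flanks 94.96%, list 68.3%). OVCAR-3 peaks covered 33.8% of the bases here against 11.7% in the flanks, and the part of this cover in the shares was not tested.

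At shared peaks the pileup could be set beside that of the other line, as the log2 ratio of OVCAR-3 to the other line. Against COLO-205 the median ratio was 0.32 over 112 members, 0.15 in the flanks and 0.58 over all shared OVCAR-3 peaks. Against DU-145 it was 1.16 over 32 members, 0.58 in the flanks and 0 over all shared peaks. Against SKOV-3 it was 2.06 over 17 members, 1.81 in the flanks and 1.24 over all shared peaks. Relative to all shared peaks, the median over these shared members was above that of the list by 1.16 against DU-145 and 0.82 against SKOV-3 on the log2 scale, and it differed by -0.27 against COLO-205. These values cover only the members called in both lines. The same signs held in the flanks.

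In the 300 bp around the summit the median G and C content was 56.0%, as in the flanks, and 55.0% over all OVCAR-3 peaks. The window itself was 51.8% G or C and the flanks 50.6%. The members near a coding start had a median of 9 CpG dinucleotides in 300 bp, against 14 in the flanks and 24 over all such OVCAR-3 peaks. The CpG-rich DNAJC11 and CAMTA1 promoters printed above were therefore not typical of the near-start members.

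The motif of AP-1, the FOS and JUN factors (TGANTCA on either strand), occurred in these 300 bp at 44 members (6.32%). The share was 5.49% in the flanks and 6.35% over the list. The core motif of the EGR factors (GCGNGGGCG) occurred at 10 members (1.44%), against 1.84% in the flanks and 3.19% over the list. A GC box (GGGCGG), which can overlap the EGR motif, occurred at 21.0% of the members, 21.8% of the flank peaks and 25.3% of the list. An E-box (CANNTG) occurred at 84.1%, 84.1% and 78.7% in the same order. For the GC box and the E-box the window was thus close to its flanks. In RefSeq promoters, of the same 300 bases each, the shares were 7.71% for AP-1, 9.43% for EGR, 45.0% for the GC box and 68.7% for the E-box. The EGR motif followed promoters, with 7.14% of the near-start members and 0.654% of the others. The same split held in the flanks (7.80% and 1.16%) and over all OVCAR-3 peaks (10.9% and 0.839%). A match is a description of the letters and does not show a factor bound there.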

How the data were processed

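H3K27ac was measured by ChIP-seq in 4 cancer cell lines, with 1 library per line, and grouped by the line in the labels. The submitters' processing notes name Bowtie2 2.1.0 and MACS2 2.1.0.20150603, and the study's methods give a q-value threshold of 0.001 and joining of peaks less than 350 bp apart. Gaps below 350 bp remain in the deposited lists, so joining was applied here only as an alternative. Per library, the authors deposited peaks with a score, a fold enrichment over local background as a ratio at the summit with 1 tag added to both terms, and a −log10 p-value and −log10 q-value. The coordinates stayed within GRCh37 chromosome lengths, and genes were taken from GENCODE 44 mapped to GRCh37.

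The pileup and background of each peak were solved as Poisson counts from fold and p-value (tolerance 0.001). This succeeded for 99.92% of OVCAR-3 peaks, all members among them, 99.9988% in COLO-205 and 100% in DU-145 and SKOV-3, and it was tested on simulated data, where it returned 100% of 15973 simulated peaks. Intervals of 95% are exact Poisson or Clopper-Pearson. Overlap meant at least 1 shared base, and the 1 kb limit to a start was measured from the peak's edge, while distances of distal peaks are from the summit. No test between lines was made, because no line has a replicate. The window, the lists of cell type and 1p36 genes and the motifs were chosen with earlier results of these data known. Named were all protein-coding genes of the window, the 8 widest, 8 highest by fold and 8 highest by q-value of its peaks, the 4 non-coding genes with the strongest peaks, and, chosen after their values were seen, the tallest distal peaks. Alternatives were q-value minima, joined peaks, lists of equal length, other edges, other overlap, other distances and nearer flanks. Python 3.11.15, NumPy 2.4.6, pandas 2.3.3 and SciPy 1.17.1 were used.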

Additional observations from a re-analysis of the deposited data

How the results depend on the processing

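No paired analysis was possible because each line gave a single library. The count of 21 marked coding genes lay between 16 and 21 under every alternative run. A −log10 q-value of at least 5 left 33.1% of the window covered, and other results within their error. At 10 or more, 332 members covered 21.7% of it, the density ratio to the flanks was 3.41, 8.43% overlapped another line, 17.5% lay within 1 kb of a coding start, and the difference in median fold enrichment to the flanks turned from 0.22 to -0.17. With peaks less than 350 bp apart joined, 431 members covered 38.7%, the density ratio was 1.96, 22.5% were shared and the fold difference was 0.41. With the 14001 strongest peaks of every list, 30 members covered 5.60%, the ratio was 1.60, 50% were shared, 73.3% lay near a coding start and the fold difference was 1.22. Where 50% or more of an OVCAR-3 peak had to be overlapped, 11.9% were shared, and within 2.5 kb of a coding start lay 23.4%. With flanks of 2 Mb the density ratio was 3.94 and the fold difference -0.0906. The difference in fold enrichment is therefore without a stable direction, and the number of members, their cover and the shares shared with other lines or near starts depend on how strict the list is. The cause of these shifts was not tested, and the shares over the whole list under these settings are not given here. Membership by overlap in place of the summit gave 697 members.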

Other observations

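Genes of 1p36 that have been studied as tumour suppressor candidates were also read as a list, of which CHD5, RPL22 and CAMTA1 lie in the window and MIR34AHG is non-coding. Of 10 such genes, OVCAR-3 marked the promoter of 9, against 59.3% of all coding genes and 90.2% of those in the flanks, COLO-205 marked 10 (48.7% of all coding genes, 75.4% in the flanks), DU-145 marked 7 (58.6% and 62.3%) and SKOV-3 marked 5 (30.9% and 49.2%). The gene missed in OVCAR-3 was PRDM16, which encodes a zinc-finger regulator of brown fat and blood stem cells. The body of PRDM16 was covered to 1.03% in OVCAR-3, 16.6% in COLO-205, 0.0828% in DU-145 and 0% in SKOV-3, and COLO-205 alone marked its promoter. CASZ1, a zinc-finger factor of neural and heart development, was covered to 30.2% in OVCAR-3, 15.8% in COLO-205, 0.528% in DU-145 and 0% in SKOV-3. TP73, a relative of the tumour suppressor p53, was covered to 14.6% in OVCAR-3 and 9.02% in COLO-205, and had no peak in its body in DU-145 and SKOV-3. The host transcript of the p53-induced microRNA of this band, MIR34AHG, was covered to 18.9% in OVCAR-3, 6.84% in COLO-205, 4.61% in DU-145 and 0.998% in SKOV-3. ERRFI1, an inhibitor of the epidermal growth factor receptor, reached 15.9%, 3.04%, 7.09% and 2.34% in the same order of lines. UBE4B, a ubiquitin ligase, and KIF1B, a kinesin motor, were marked at the promoter in all 4 lines and covered to 10.4% and 7.92% in OVCAR-3. Inside the window, RPL22 had the highest OVCAR-3 share of the 10 genes, at 40.7%.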
